A study of Mus musculus with 11 samples.

Results

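The genes described here make, carry, sense and break down retinoic acid in fibroblasts of the mouse thymus. They were 9 symbols listed by name, Rdh10, Dhrs3, Aldh1a1, Aldh1a2, Aldh1a3, Crabp1, Cyp26b1, Rarb and Rarres2, and all 9 were among the 12430 genes of the deposited table. Dexamethasone, a synthetic glucocorticoid under which the thymus shrinks, was injected intraperitoneally into young male wild-type mice at 200 ug per 10 g, and cells were taken 18 h or 4 d later. Age-matched wild-type males without treatment were the reference. The untreated group has 4 libraries, the 18 h group 3 and the 4 d group 4, each made by MARS-seq, a 3' end counting method. For the later group 4 d is used, as in its time label and treatment text, although its titles say 3 d. Whether replicates were different mice is not in the labels, and p-values therefore cover the spread among these libraries alone, some of which may be technical.

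Retinoic acid is made from vitamin A in a pair of oxidation steps. Retinol dehydrogenases such as Rdh10 turn retinol into retinaldehyde, and the enzymes Aldh1a1, Aldh1a2 and Aldh1a3 turn retinaldehyde into retinoic acid. Dhrs3 works against the opening step by reducing retinaldehyde back to retinol. Crabp1 binds retinoic acid in the cytosol, Cyp26b1 oxidises it to inactive products, and Rarb is a nuclear receptor for it whose own gene is a classical retinoic acid target. Rarres2 encodes chemerin, a secreted chemoattractant and adipokine, which carries "retinoic acid receptor responder" in its name and is not an enzyme of the pathway. In the thymus, mesenchymal cells are known as a source of retinoic acid that acts on the epithelium.

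The stretch before a start site of Rarb shows what a retinoic acid response element looks like. That of Cyp26b1, whose counts moved in these libraries, is shown beside it. Both stretches are the 250 bases before a RefSeq start site on GRCm38.p6, read 5′ to 3′ on the minus strand. They lie at chr14:16575477-16575726 for Rarb and chr6:84593811-84594060 for Cyp26b1. The Rarb site lies inside the gene's span, 16430839 to 16819156, and not at its 5′ end. The Cyp26b1 stretch crosses the 5′ end of that gene's span, 84571414 to 84593908, so its last bases lie inside the annotated gene. Capitals mark matches to the patterns searched.
Rarb: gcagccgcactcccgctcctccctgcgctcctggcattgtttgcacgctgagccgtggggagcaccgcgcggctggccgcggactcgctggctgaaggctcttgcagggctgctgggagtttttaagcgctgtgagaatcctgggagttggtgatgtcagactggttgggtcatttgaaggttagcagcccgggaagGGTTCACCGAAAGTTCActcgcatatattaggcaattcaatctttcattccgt
Cyp26b1: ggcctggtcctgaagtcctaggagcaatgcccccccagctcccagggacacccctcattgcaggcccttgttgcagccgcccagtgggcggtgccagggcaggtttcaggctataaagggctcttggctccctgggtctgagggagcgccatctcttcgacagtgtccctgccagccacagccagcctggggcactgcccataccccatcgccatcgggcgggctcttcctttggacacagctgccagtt
The capitals in Rarb, from 53 to 37 bases before the start, are a direct repeat of the receptor half-site with 5 bases between the copies. It was found with the half-site pattern NGNTCA written 2 times in a row with 5 free bases between, on either strand, which 0.861% of 32851 RefSeq promoter windows of 300 bases hold. RefSeq windows were matched for 6 of the 9 genes, 9 windows in all, and Rdh10, Aldh1a3 and Rarres2 were not searched. Besides the Rarb repeat, they held no match to that pattern or to the repeats of the same half-site with 2 or 1 free bases between copies, which 1.11% and 1.25% of windows hold. The glucocorticoid receptor half-site AGAACA occurred in 1 of them, 202 to 197 bases before a Dhrs3 start, against 19% of all windows, and its palindrome, AGAACA and TGTTCT with 3 free bases between, in 0, against 0.00913%. These matches describe letters in a window and not binding.

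Library totals ran from 916281 to 3357113 counts, and 18 h replicate 2 and 4 d replicate 4 were the shallowest, at 924731 and 916281. Levels are CPM, the counts relative to each library's TMM-adjusted size, and 3 counts, the limit that a count of 0 allows, correspond to 1.0002 to 3.74 CPM depending on the library. Such limits cover counting error only. The sort was for CD45-, EpCAM+, CD34+, CD31- and PDGFRalpha+ cells per the labels. Pdgfra stood at 49.96 to 154 CPM and Cd34 at 469 to 1303 CPM in the 11 libraries, while Epcam stood at 0.378 to 10.4 CPM, low for a marker listed as positive. Pecam1, which encodes CD31, was at 0 to 3.78 CPM in untreated libraries and 14.6 to 122 CPM at 18 h, and Ptprc, which encodes CD45, at 0.518 to 5.5997 CPM and 6.08 to 15.99 CPM. The summed markers of fibroblasts (9 of 9 in the table) were at 16320 to 25160 CPM in untreated, 5816 to 14773 CPM in 18 h and 18415 to 29642 CPM in 4 d libraries.

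Mesothelial markers (12 of 13 in the table), those of the cell layer that covers the organ, were also present. They summed to 4010 to 6701 CPM in untreated and 3057 to 5620 CPM in 18 h libraries. At 4 d the sums were 5644 and 6159 CPM in replicates 1 and 2, against 814 and 2217 CPM in replicates 3 and 4, the 2 lowest of all libraries. Because 4 d replicates 3 and 4 stood apart in this way, 4 d results that rest on them are given with and without them, a choice made after the data were seen. In bulk libraries fewer cells of a type and less RNA per cell cannot be told apart.

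Rdh10, the retinol dehydrogenase of the opening step (protein-coding, chromosome 1, 16105774 to 16133734, GRCm38), was higher at both times after dexamethasone. Untreated replicates 1 to 4 had 14.0, 19.6, 17.5 and 19.7 CPM. The 18 h libraries had 30.4, 72.9 and 70.6 CPM and those of 4 d had 54.2, 51.4, 57.0 and 34.9 CPM. Every treated library lay above every untreated one. The group means were 17.7 ± 2.67 (SD, n = 4), 58.0 ± 23.9 (SD, n = 3) and 49.4 ± 9.93 CPM (SD, n = 4). The log2 difference from untreated was 1.69 ± 0.30 (SE) at 18 h, a 3.23-fold rise (edgeR adjusted p = 0.00301), and 1.495 ± 0.28 at 4 d, a 2.82-fold rise (adjusted p = 0.0132). Between 18 h and 4 d it did not pass, at -0.20 ± 0.30 with a 95% interval of -0.83 to 0.43. The 18 h call held under all 20 alternatives. The 4 d call held under 18 of 20. At 4 d the difference was 1.60 without replicates 3 and 4, with an adjusted p of 0.0613.

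**Figure D1:**
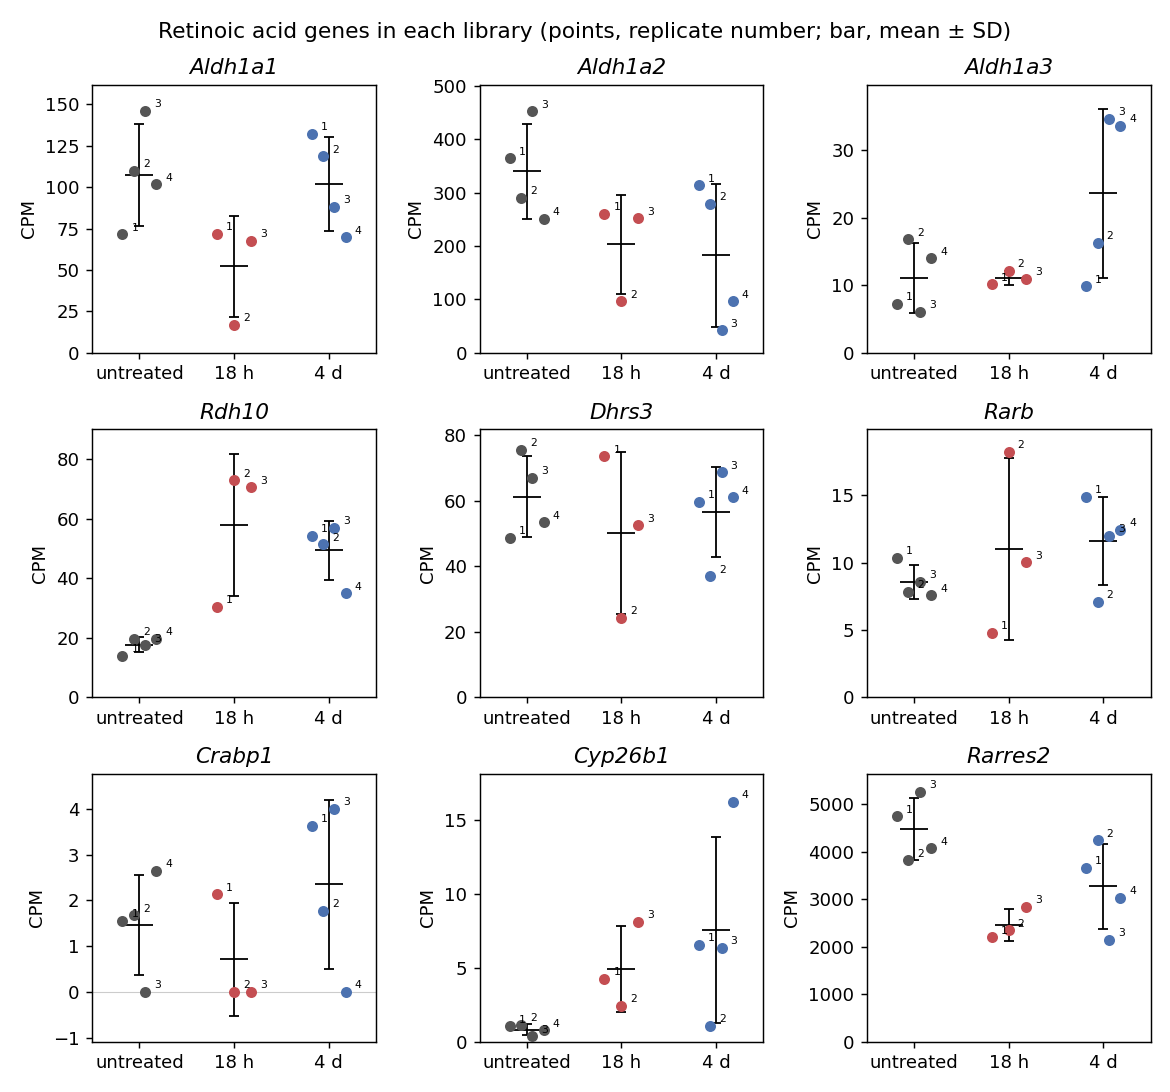
Level of each of the 9 genes in CPM, 1 panel a gene, in untreated, 18 h and 4 d libraries. Points are libraries marked with their replicate number, and bars are the mean ± SD; every treated point of Rdh10 lies above 30 CPM and every untreated point below 20 CPM.

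Dhrs3, which reduces retinaldehyde back to retinol (chromosome 4, 144892827 to 144928209), was not called in any comparison. It was at 48.7, 75.6, 67.1 and 53.4 CPM in untreated libraries, 73.6, 24.3 and 52.5 CPM at 18 h and 59.7, 36.9, 68.7 and 61.0 CPM at 4 d. The groups overlapped, and the lowest value was that of 18 h replicate 2. Its log2 differences were -0.25 ± 0.33 at 18 h (95% interval -0.95 to 0.44) and -0.12 ± 0.30 at 4 d (-0.75 to 0.52).

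The ratio of Rdh10 to Dhrs3 within a library depends on how libraries are scaled only through the prior count of 2 added before the log2. Its log2 value for untreated replicates 1 to 4 came to -1.73, -1.90, -1.88 and -1.40. It was -1.25, 1.55 and 0.42 at 18 h and -0.14, 0.47, -0.26 and -0.79 at 4 d. Every treated library thus had a higher ratio than every untreated one, with the 18 h libraries spread over the widest range.

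The 3 retinaldehyde dehydrogenases did not move together, and no difference of theirs passed. Aldh1a1 (chromosome 19, 20492715 to 20643465) was at 71.5, 109.8, 146 and 102 CPM in untreated libraries, 71.96, 17.0 and 67.7 CPM at 18 h, and 132, 119, 88.0 and 69.8 CPM at 4 d. The 18 h libraries were mostly below the others, with 1 overlapping the lowest untreated library, and the 4 d libraries spanned nearly the untreated range. Its log2 difference was -0.999 ± 0.39 at 18 h (unadjusted p = 0.0236, adjusted p = 0.112), -0.06 ± 0.35 at 4 d (adjusted p = 0.953; 0.25 without 4 d replicates 3 and 4) and 0.94 ± 0.39 between the times (unadjusted p = 0.0322, adjusted p = 0.186). Without 18 h replicate 2, the library with the lowest level and the lowest fibroblast marker sum, the 18 h difference was -0.62.

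Aldh1a2 (chromosome 9, 71215789 to 71296243) split the 4 d group. It was at 364, 291, 452 and 251 CPM in untreated libraries and 260.1, 96.0 and 252 CPM at 18 h. At 4 d it was at 314 and 279 CPM in replicates 1 and 2 but 42.0 and 95.9 CPM in replicates 3 and 4. The log2 difference was -0.74 ± 0.54 at 18 h (adjusted p = 0.405) and -0.89 ± 0.50 at 4 d (adjusted p = 0.357), and without 4 d replicates 3 and 4 the latter was -0.17. The 2 low libraries were those with the lowest mesothelial marker sums, in which the mesothelial genes Msln and Upk3b stood at 108 and 69.0 CPM in replicate 3 and 414 and 240.4 CPM in replicate 4. In replicates 1 and 2 Msln was at 1345 and 1275 CPM. Not every marker on the list was low. Wt1 stood at 187 and 147 CPM in replicates 3 and 4, within its untreated range of 111 to 234 CPM. The low Aldh1a2 level of 18 h replicate 2 came with a mesothelial sum of 5620 CPM, within the untreated range. Wt1 was at 54.7 CPM in that library, its lowest level. The part of mesothelial cells in the Aldh1a2 level was not tested.

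Aldh1a3 (chromosome 7, 66390890 to 66427517) went the other way in the same libraries. It was at 7.25, 16.8, 6.06 and 14.0 CPM in untreated libraries, 10.1, 12.2 and 10.97 CPM at 18 h, and 9.82, 16.3, 34.7 and 33.6 CPM in 4 d replicates 1 to 4. Only 4 d replicates 3 and 4 lay above the untreated range. The log2 difference was 0.00 ± 0.48 at 18 h and 1.07 ± 0.42 at 4 d (unadjusted p = 0.0227, adjusted p = 0.181), and the latter was 0.29 without these 2 libraries. Across the 11 libraries the log2 levels of Aldh1a2 and Aldh1a3 had a Pearson r of -0.81 and a Spearman rho of -0.76, given as a description of libraries that share 3 groups and differ in depth.

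**Figure D2:**
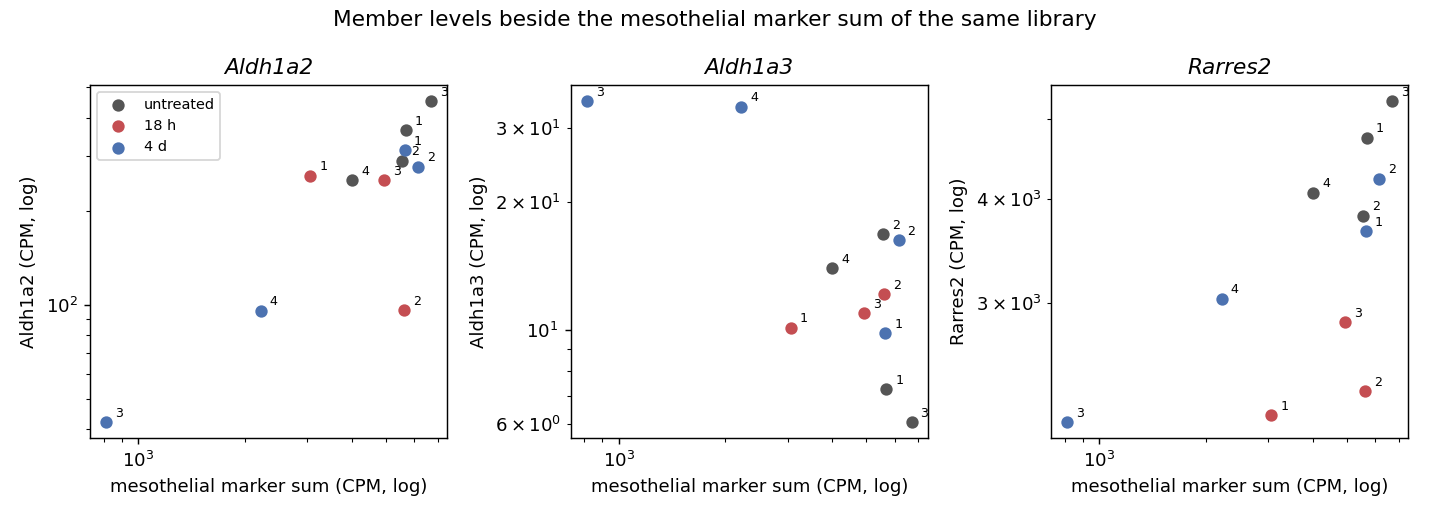
Levels of Aldh1a2, Aldh1a3 and Rarres2 in CPM (vertical, log axis) against the summed mesothelial markers of the same library in CPM (horizontal, log axis), with 1 point a library, coloured by group and marked with its replicate number. The 4 d libraries 3 and 4, at 814 and 2217 CPM of mesothelial markers, had the highest Aldh1a3 levels, and 18 h replicate 2 had a low Aldh1a2 level at 5620 CPM.

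Cyp26b1, which clears retinoic acid by hydroxylation (chromosome 6, 84571414 to 84593908), was barely detected in untreated libraries and higher at both times. Untreated replicates 1 to 4 gave 2, 2, 1 and 2 counts of it. The 18 h libraries gave 8, 2 and 17 and the 4 d libraries 18, 3, 19 and 13. In CPM these were 1.04, 1.12, 0.357 and 0.757, then 4.26, 2.43 and 8.11, then 6.55, 1.06, 6.33 and 16.2. Only treated libraries brought Cyp26b1 past the filter on low counts, so it was tested only because it was high in them. All 18 h libraries and 3 of 4 at 4 d lay above the untreated ones, and 4 d replicate 2 lay among them. The value of the shallow 18 h replicate 2 was 2 counts, under that library's limit of 3.65 CPM. Untreated replicates 1, 2 and 4 had the same count, so the separation at 18 h rests on few reads. The log2 difference was 2.69 ± 0.82 at 18 h (adjusted p = 0.0455, 95% interval 0.94 to 4.44) and 2.98 ± 0.75 at 4 d (adjusted p = 0.0459, 1.37 to 4.59). Pooled over a group, 27 counts at 18 h against 7 gave a CPM ratio of 7.37 with an exact counting interval of 3.13 to 20.04, and 53 counts at 4 d gave 7.40 (3.35 to 19.3). These intervals cover counting error only, not the spread between libraries.

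Both Cyp26b1 calls lay close to the threshold. At 18 h it was lost on removing any single untreated library, 18 h replicate 1, 18 h replicate 3, 4 d replicate 1 or 4 d replicate 3 (adjusted p from 0.0516 to 0.177). At 4 d it was lost on removing any single untreated library, 18 h replicate 1, or 1 of 4 d replicates 1, 3 and 4 (0.0591 to 0.161), and without the 2 shallow libraries (0.0713). Limma-voom called neither (0.123 and 0.190), and of 18 alternatives in which the gene was tested 9 kept the 18 h call and 6 the 4 d call. Without 4 d replicates 3 and 4 together the 4 d difference was 2.24 (adjusted p = 0.290). In the authors' deposited table the adjusted p of Cyp26b1 was 0.0261 for untreated against 18 h and 0.00757 for untreated against 4 d.

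The ratios of each retinaldehyde dehydrogenase to Cyp26b1 set an enzyme of synthesis against one of removal. For Aldh1a1 the log2 ratio was 5.19 to 6.82 in untreated, 2.41 to 3.81 in 18 h and 2.04 to 5.90 in 4 d libraries. For Aldh1a2 it was 7.14 to 8.45, 4.80 to 5.65 and 2.499 to 7.12, and for Aldh1a3 2.05 to 3.14, 0.40 to 1.96 and 0.52 to 3.10. In all 3 ratios each 18 h library lay below each untreated one, while the 4 d libraries overlapped the untreated for Aldh1a1 and Aldh1a3. For Aldh1a2 the closest values were 7.12 in 4 d replicate 2 and 7.14 in untreated replicate 2. They came from 786 counts to 3 and 519 counts to 2, and without the prior count their order is the reverse. The 3 ratios share Cyp26b1, itself above the untreated libraries in every 18 h library, though on 2 counts in replicate 2. They are not independent of its rise. The log2 difference of Aldh1a3 alone was 0.005 at 18 h. With so few Cyp26b1 counts these ratios depend on the prior count of 2.

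**Figure D3:**
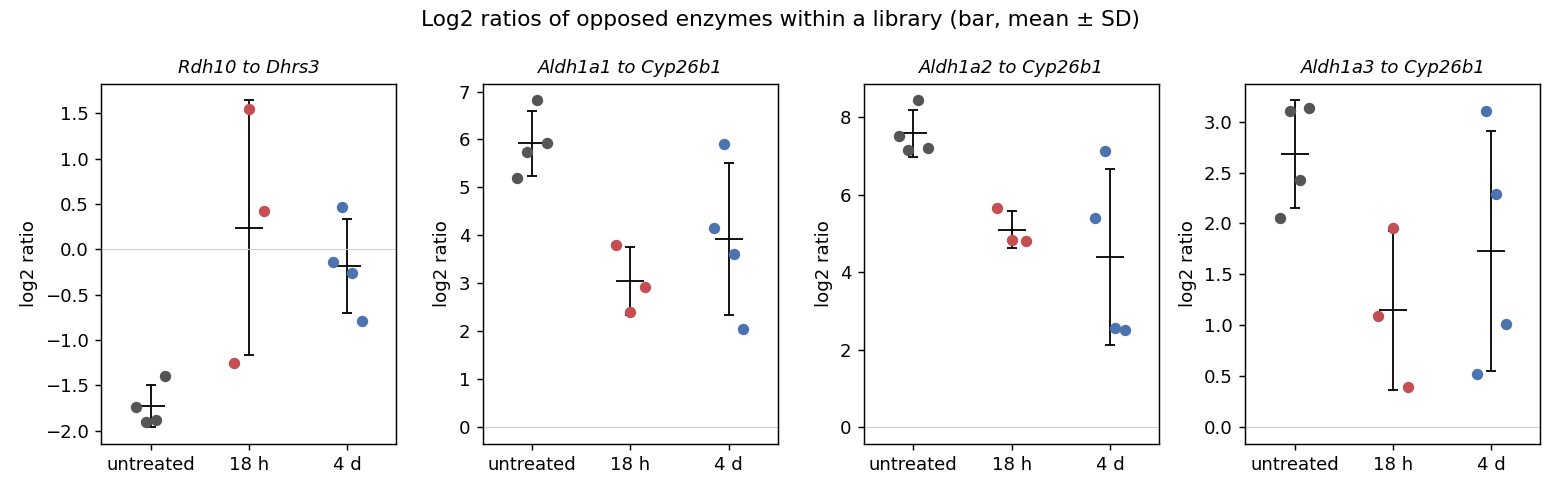
Log2 ratios between opposed enzymes within a library, 1 panel a ratio, by group. Points are libraries and bars the mean ± SD. The ratio of Rdh10 to Dhrs3 was at most -1.40 in untreated and at least -1.25 in treated libraries. That of Aldh1a2 to Cyp26b1 was at least 7.14 in untreated and at most 7.12 in treated libraries, a gap that depends on the prior count of 2.

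Crabp1, the cytosolic retinoic acid binder (chromosome 9, 54764748 to 54773110), did not pass the filter on low counts and was not tested. Its counts were 3, 3, 0 and 7 in untreated libraries, 4, 0 and 0 at 18 h and 10, 5, 12 and 0 at 4 d. In CPM the highest value was 4.00, in 4 d replicate 3. The 0 counts of the shallow libraries, 18 h replicate 2 and 4 d replicate 4, allow up to 3.65 and 3.74 CPM. The groups summed to 13, 4 and 27 counts, and the libraries of each group overlapped those of the others.

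Rarb, the receptor whose response element is printed above (chromosome 14, 16430839 to 16819156), was not called in any comparison. It was at 10.4, 7.84, 8.56 and 7.57 CPM in untreated libraries, 4.80, 18.2 and 10.01 CPM at 18 h and 14.9, 7.09, 12.002 and 12.5 CPM at 4 d. Untreated values were tight, while the 18 h libraries included both the lowest and the highest level of all 11. The log2 difference was 0.25 ± 0.42 at 18 h (adjusted p = 0.730) and 0.43 ± 0.37 at 4 d (adjusted p = 0.583, 95% interval -0.36 to 1.22). Its 3' end overlaps that of Top2b on the opposite strand over 4624 bases, and its level is uncertain because the sources used here do not give the strand setting of the counting.

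Rarres2, which encodes chemerin (chromosome 6, 48569696 to 48572789), fell at 18 h. It was at 4746, 3820.1, 5259 and 4071 CPM in untreated libraries, 2193, 2345 and 2839 CPM at 18 h and 3661, 4236, 2150 and 3033 CPM at 4 d. Every 18 h library lay below every untreated one, and the 4 d libraries overlapped both groups. Means were 4474 ± 653 (SD, n = 4), 2459 ± 338 (SD, n = 3) and 3269.7 ± 894 CPM (SD, n = 4). The gene fell by 0.86 on the log2 scale at 18 h (SE 0.26, adjusted p = 0.0416) and stood at -0.45 ± 0.23 at 4 d (adjusted p = 0.321), or -0.15 without 4 d replicates 3 and 4.

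The 18 h call of Rarres2 was lost without any single untreated or 18 h library or 4 d replicate 1 (adjusted p from 0.0517 to 0.138) and without the 2 shallow libraries, where the difference was -0.83. In the authors' deposited table its adjusted p for untreated against 18 h was 0.0102. The gene overlaps Lrrc61 on the opposite strand over 1027 bases at its 3' end, and reads of the 2 genes may not be separable. All 3 of the 18 h libraries also had lower fibroblast marker sums than the remaining 8, and the part of this in the fall was not tested.

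Of the 8 genes tested, 2 were higher (Rdh10 and Cyp26b1) and 1 was lower (Rarres2) at 18 h, where 7.85% and 4.69% of 10067 genes tested, 12.5% in all, were called in these directions. At 4 d the same 2 genes were higher and 0 were lower, against 2.48% and 0.824% of all genes, 3.31% in all, and at an unadjusted p below 0.05 edgeR and DESeq2 had 0 lower and limma-voom 2. Between 18 h and 4 d edgeR called 0 of 8, where 1.7% of all genes were called higher and 3.81% lower, 5.51% in all, and DESeq2 and limma-voom also called 0. At an unadjusted p below 0.05 edgeR had 2 there, Aldh1a1 and Aldh1a3. At 18 h every library lay above the untreated ones for 2 of the 8 and below for 1, against 12.2% and 11.5% of all genes, 23.6% together. At 4 d 1 lay above and 0 below, against 8.07% and 6.56%, 14.6% together. Between the times all 8 overlapped, where 9.52% of all genes lay above and 10.5% below, 20.1% together. The median log2 difference of the 8 was -0.12 at 18 h, 0.18 at 4 d and 0.23 between the times, against -0.03, -0.04 and 0.00 over all genes. Both comparisons with untreated share the untreated libraries. Cyp26b1 was among the 8 only through its treated libraries, and its separation at 18 h rests on 2 counts in 18 h replicate 2.

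**Figure D4:**
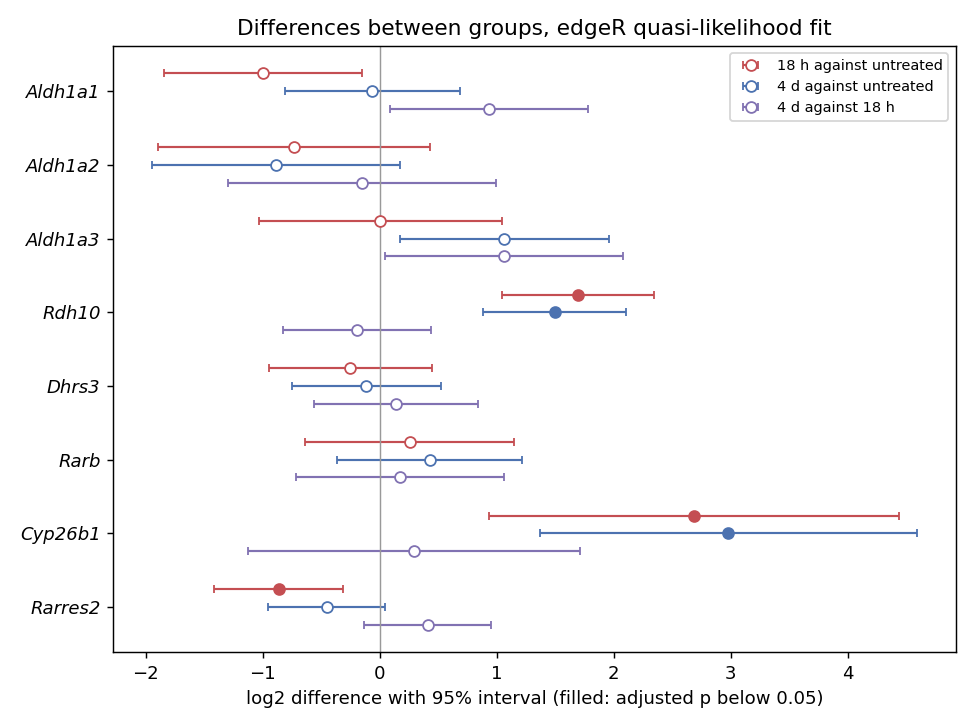
Log2 difference of the 8 tested genes (horizontal) with its 95% interval in the 3 comparisons, from the edgeR fit over all genes. Filled points passed an adjusted p of 0.05; they are Rdh10 and Cyp26b1 at both times and Rarres2 at 18 h.

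A list of 56 other genes of retinoid metabolism, binding and response had 36 in the table and 30 tested. At 18 h 2 were higher and 1 lower, at 4 d 0 higher and 1 lower, and between the times 0 passed in edgeR, where 5 had an unadjusted p below 0.05 and DESeq2 called 2 and limma-voom 1. Over all genes tested, edgeR called 12.5%, 3.31% and 5.51% in these comparisons. The median log2 difference was 0.03 at 18 h and 0.05 at 4 d. By function, 0 of 5 tested genes of the retinol and retinaldehyde enzymes, 0 of 2 of retinoic acid binding and degradation, 0 of 9 receptors and coregulators, 1 of 7 retinoic acid induced genes and 1 of 3 chemerin receptors passed at 18 h.

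Crabp2, the binder that hands retinoic acid to its nuclear receptors, had raised values at both times without passing. It was at 0.357 to 2.27 CPM in untreated libraries, 3.73 to 13.4 CPM at 18 h and 2.49 to 11.3 CPM at 4 d. Neither treated group overlapped the untreated one, an upward separation that 12.2% of all genes had at 18 h and 8.07% at 4 d. The groups held 14, 28 and 74 counts. Only treated libraries brought Crabp2 past the filter on low counts. The lowest 4 d value was 2 counts in the shallow replicate 4, under that library's limit of 3.74 CPM, so the separation at 4 d rests on few reads. The log2 difference of Crabp2 was 2.03 ± 0.65 at 18 h (adjusted p = 0.0567) and 2.21 ± 0.58 at 4 d (adjusted p = 0.0529). DESeq2 called both, with adjusted p of 0.0208 and 0.0151. In edgeR it was called at 18 h without 4 d replicates 3 and 4 (0.0490), and at 4 d without 18 h replicate 2 (0.0260) and without the 2 shallow libraries (0.0241). Without 18 h replicate 2, its highest library, the 18 h difference was 1.43 (adjusted p = 0.186). At 4 d the adjusted p of Crabp2 reached 0.171 with 1 library left out. Under the other alternatives, among them the fit without 4 d replicates 3 and 4, the 4 d difference was 2.13 to 2.39. The adjusted p at 4 d reached 0.183 under these.

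Cd38, a retinoic acid induced ectoenzyme that many leukocytes also carry, rose at 18 h by 2.96 ± 0.78 (adjusted p = 0.0240), from 6 counts over the untreated libraries to 25. Only treated libraries brought it past the filter on low counts. The call was lost without untreated replicate 2, 18 h replicates 1 or 2 or the 2 shallow libraries (adjusted p from 0.0532 to 0.118) and in limma-voom (0.0701). Macrophage and leukocyte markers (12 of 14 in the table) summed to 84.4 to 223 CPM in untreated and 158 to 443 CPM in 18 h libraries, and endothelial markers (12 of 12) to 219 to 350.1 and 232 to 1034 CPM. Pericyte markers (9 of 10) summed to 133 to 301 and 402 to 1088 CPM. Thymic epithelial markers (7 of 11) summed to 246 to 343 and 218 to 773 CPM. Their part in the 18 h results was not tested.

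The chemerin receptor gene Ccrl2, which presents chemerin to other cells, rose at 18 h. It was at 26.04 to 50.2 CPM in untreated and 67.7 to 128 CPM in 18 h libraries, a log2 difference of 1.27 ± 0.29 (adjusted p = 0.0132), and at 40.7 to 72.6 CPM at 4 d. The call was lost without the 2 shallow libraries (adjusted p = 0.0518). The signalling receptor Cmklr1 stood at 0.18 ± 0.33 at 18 h and 0.15 ± 0.30 at 4 d. Gpr1, also a chemerin receptor, stood at -1.45 ± 0.72 at 18 h and did not pass (adjusted p = 0.205 in edgeR). It had 9 counts over the 18 h libraries and 48 over the untreated ones. Chemerin's own gene and that of the presenting receptor thus changed in opposite directions at 18 h.

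At 4 d Nr2f2, an orphan nuclear receptor that retinoic acid can induce, fell by 1.99 on the log2 scale (SE 0.47, adjusted p = 0.0348). It was at 5.04 to 9.99 CPM in untreated and 1.33 to 3.74 CPM in 4 d libraries, with 16 counts in the latter group. It no longer passed on removing 1 of untreated replicates 2, 3 and 4 or of 4 d replicates 1, 2 and 3 (adjusted p from 0.0542 to 0.134), nor without 4 d replicates 3 and 4 together (0.152). Adh1, an alcohol dehydrogenase that also oxidises retinol, stood at 0.84 ± 0.27 (adjusted p = 0.1002 in edgeR and 0.0468 in DESeq2). Every 4 d library lay above every untreated one, as for 8.07% of all genes. Its 4 d replicates 1 to 4 had 118, 130, 188 and 162 CPM, against at most 114 CPM in untreated libraries. Among the alternatives only DESeq2 called it. The difference fell as low as 0.60, and edgeR's adjusted p reached 0.285 with 1 library left out. The receptor Rarg stood at -0.55 ± 0.19 (adjusted p = 0.121).

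Between 18 h and 4 d low adjusted p values were those of Nr2f1 (-1.48 ± 0.46, adjusted p = 0.0768), the transglutaminase gene Tgm2 (-0.95 ± 0.34, 0.125) and the coactivator gene Ncoa1 (1.45 ± 0.54, 0.133). These did not pass in edgeR. DESeq2 called Nr2f1 (adjusted p = 0.0387), as did edgeR without 18 h replicate 3 (0.0496) and without 4 d replicates 3 and 4, where the difference was -2.28 (0.0237). Tgm2, a retinoic acid induced gene, was at 594 to 812 CPM at 18 h and 491 and 539 CPM in 4 d replicates 1 and 2. It was at 185 and 269 CPM in 4 d replicates 3 and 4, which were also low in Aldh1a2. In 18 h replicate 2, low in Aldh1a2 as well, Tgm2 had its highest level, 812 CPM.

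**Figure D5:**
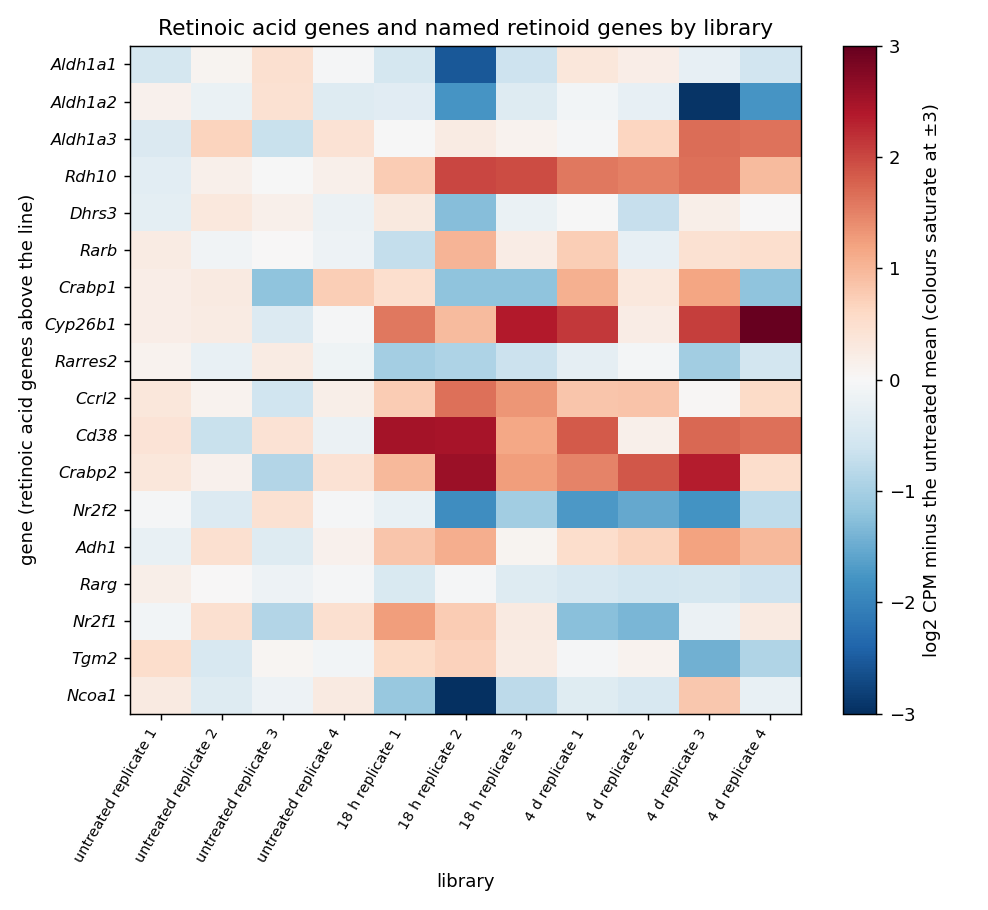
Log2 CPM of the 9 genes (above the line) and of 9 other retinoid genes (below it) in each library, minus the mean of the untreated libraries, with colours that saturate at 3. Rdh10 is raised in all 7 treated libraries and Aldh1a2 is lowest in 18 h replicate 2 and 4 d replicates 3 and 4.

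Among the genes with a mean count of at least 50, 4805 besides Rdh10 itself, those whose log2 level followed Rdh10 most closely over the 11 libraries were Ifi204 (Pearson r of 0.92), a nucleic acid sensor of the interferon response, Cdc34 (0.92), a ubiquitin-conjugating enzyme, and Enc1 (0.92). Ifi204 rose by 2.79 ± 0.36 at 18 h and 1.95 ± 0.34 at 4 d. Those closest to Cyp26b1 were the chemokine gene Cxcl5 (0.91), Il15ra (0.89), a chain of the interleukin receptor, and the lipid droplet gene Hilpda (0.89), and all 3 rose at both times. Closest to Rarres2 were Igfbp5 (0.95), a binding protein for insulin-like growth factors, Wnt2b (0.95), a Wnt ligand, and Wfdc1 (0.95), all of which fell at 18 h. For Aldh1a2, looked up after its split was seen, they were the tetraspanin gene Cd151 (0.97), Arhgdib (0.95) and F11r (0.95), a junction protein of epithelia and endothelia. Cd151 was at 148 and 249 CPM in 4 d replicates 3 and 4 and at 592 and 598 CPM in replicates 1 and 2. These correlations describe libraries of 3 groups and carry no test. Genes picked by correlation tend to share the direction of the gene they follow, so their rises and falls are not separate results.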

How the data were processed

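MARS-seq libraries of sorted thymic fibroblasts were analysed from the authors' count table. Reads had been handled with tools listed in the submitters' processing notes, among them cutadapt, STAR 2.5.2b, HTSeq and DESeq2, against mm10. How molecular identifiers, strand and annotation were treated is not stated there. The values deposited by the authors are whole-number counts for each gene and library. The authors also deposited their own log2 fold changes and p-values adjusted over genes, quoted where named. Here filterByExpr (edgeR 4.0.16, R 4.3.3, minimum count 10) left 10067 of 12430 genes, with TMM scaling. A single robust quasi-likelihood model held the 11 libraries with group as its term, and a call needed an adjusted p (Benjamini-Hochberg over every tested gene) under 0.05. An SE is the size of a log2 difference over the square root of F. The log2 CPM used a prior count of 2. Spans are from GENCODE on GRCm38, and promoters from RefSeq on GRCm38.p6. No replicate pair among 15 was within sampling noise (lowest chi-square over degrees of freedom, 4.79). Alternatives were RLE scaling, no filter, a minimum count of 20, DESeq2 1.42.0, limma-voom (limma 3.58.1), only the 2 groups compared, a replicate block and leaving out libraries. The genes and lists were chosen with earlier results of these data known. Named are all 9 genes and each other retinoid gene that passed in a comparison or, where fewer than 4 did, the 4 with the smallest adjusted p. Also named are the 3 genes closest in pattern to each of the 9 that passed. Cmklr1, Gpr1 and the genes closest to Aldh1a2 were added after their values were seen. The result of 1 gene that this rule named is not reported here, and it stayed in the fits and counts.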

Additional observations from a re-analysis of the deposited data

How the results depend on the processing

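Of 475 recomputed differences of the tested genes, 409 kept direction and side of the threshold, 33 lost the call and 33 changed sign. RLE scaling moved the median of all genes by at most 0.01 (log2). Replicate numbers did not mark pairs: the deviations of same-numbered libraries correlated at -0.34 to 0.19, over 0.1 in 2 of 10 pairs, against 9 of 30 other pairs. These are title numbers. The descriptions number the untreated libraries 1, 3, 4 and 5, and by them 1 of 8 pairs was over 0.1 (-0.14 to 0.36); a block with those numbers was not fitted. With the replicate block, the genes described had 0 lower at 18 h and 0 higher at 4 d, as the adjusted p was 0.0960 for Rarres2 at 18 h and 0.0520 and 0.0725 for Rdh10 and Cyp26b1 at 4 d. It was 0.0727 for Cd38 at 18 h and 0.110 for Nr2f2 at 4 d. Other retinoid genes then had 1 higher and 0 lower at 18 h and 0 lower at 4 d, and all genes 443 higher and 205 lower at 18 h, with 46 and 14 for 4 d against untreated and 74 and 231 between the times. Under the block Ncoa1 at 4 d was -0.0472 and Cyp26b1 between the times -0.0161. A minimum count of 20, limma-voom and the fit of only the 2 groups each left 1 member higher at 18 h, 1 at 4 d and 1 other retinoid gene higher at 18 h, and the minimum count of 20 left 0 lower at 4 d. Cyp26b1 and Cd38 were not tested with that minimum or with the 2 groups alone. DESeq2 called 3 other retinoid genes lower at 18 h, 2 higher at 4 d, and 1 higher and 1 lower between the times. It called 481 higher and 209 lower of all genes at 4 d and 343 higher between the times. With limma-voom 1 other retinoid gene was higher between the times, Ncoa1 at 4 d was -0.0513 and Cyp26b1 between the times -0.30. With only the 2 groups, all genes had 394 higher and 144 lower at 4 d and 102 and 253 between the times. Without the 2 shallowest libraries, 0 members were lower and 0 other retinoid genes higher at 18 h, 1 member and 1 other gene were higher at 4 d, and between the times 1 other gene and 111 of all genes were higher. Signs then turned for Aldh1a3 (-0.0501), Dhrs3 (0.0385) and Rarb (-0.20) at 18 h, Aldh1a1 (0.0771) at 4 d, and Rdh10 (0.11), Dhrs3 (-0.19) and Cyp26b1 (-0.41) between the times. Aldh1a3 at 18 h was -8.405e-05 with no filter, -0.0136 with the minimum of 20 and -0.00266 with 2 groups. Leaving out 4 d replicates 3 and 4 together, chosen after seeing the data, gave 2 other retinoid genes lower at 18 h, 0 members higher and 0 other genes lower at 4 d, and 1 other gene lower between the times. All genes then had 29 higher and 18 lower at 4 d and 69 higher between the times. Signs turned for Aldh1a1 (0.25), Tgm2 (0.0209) and Ncoa1 (-0.45) at 4 d and for Aldh1a2 (0.55), Dhrs3 (-0.0723), Cyp26b1 (-0.46) and Adh1 (-0.0895) between the times. The causes were not tested. Leaving out 1 library at a time gave 1 to 2 members higher and 0 to 1 lower at 18 h and 1 to 2 higher at 4 d. For other retinoid genes it gave 1 to 2 higher and 0 to 2 lower at 18 h, and 0 to 1 each way at 4 d and between the times. All genes ranged from 463 to 963 higher and 171 to 567 lower at 18 h, with 86 to 440 and 27 to 177 for 4 d against untreated and 45 to 346 and 196 to 461 between the times. Ranges crossing 0 were those of Aldh1a3 (-0.22 to 0.26), Dhrs3 (-0.63 to 0.0404) and Rarb (-0.20 to 0.64) at 18 h. At 4 d they were Aldh1a1 (-0.21 to 0.12), Dhrs3 (-0.23 to 0.0483) and Ncoa1 (-0.43 to 0.18). Between the times they were Aldh1a2 (-0.54 to 0.18), Dhrs3 (-0.15 to 0.51), Rarb (-0.21 to 0.63), Cyp26b1 (-0.18 to 0.87), Crabp2 (-0.16 to 0.79) and Adh1 (-0.10 to 0.37). Counting limits bear most on Cyp26b1, Crabp1, Cd38 and Crabp2.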
